A study of Mus musculus with 24 samples.

Results

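Day 2 was compared with day 1 after activation of a silencing channel in the adult mouse entorhinal cortex, across all expressed genes. The members were the 6 libraries labelled 2DPI and the 6 labelled 1DPI, 12 of the 24 libraries of the series. The series measured RNA of the dissected entorhinal cortex by bulk sequencing, in vehicle mice and at 1, 2 and 3 days after activation, with 6 libraries in each of the 4 groups. Its title names activity-dependent survival in this region as the subject.

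All 4 groups, vehicle included, came from the cross of Nop-tTA Line S with TRE-GlyCl-YFP Line 9531, had the genotype tg/tg and were 2 to 4 months old. Day 1 and day 2 each held 3 females and 3 males. The labels do not name the agent that activated the channel or say when vehicle tissue was taken. Nop-tTA uses the promoter of Klk8 (neuropsin), which is active mainly in part of the superficial neurons of the entorhinal cortex, so the tissue also held many cells without the transgene. In such bulk tissue, fewer cells of a type and less RNA per cell cannot be told apart. Each library had its own animal number, but the labels do not state that the animals were separate. If they were not, p-values measure only the spread between these libraries.

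GlyCl is an engineered glycine-receptor channel: once opened it passes chloride and holds the neuron silent. Neurons that lose activity lower the transcription of immediate early genes such as Egr3, Egr1 and Arc, which synaptic calcium signals switch on within minutes. Microglia, the resident macrophages of the brain, answer injured neurons by releasing chemokines, raising phagocytic receptors and dividing, and astrocytes answer by raising the filament protein Gfap.

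Of 16767 genes tested, 2 rose from day 1 to day 2 and 0 fell (edgeR quasi-likelihood test, Benjamini-Hochberg adjusted p under 0.05, n = 6 per group). The genes called higher were 0.0119% of those tested and the genes called lower 0%. The risers were Mmp15, a membrane-bound metalloproteinase that cuts extracellular matrix, and Ccl4, a chemokine released by activated microglia. DESeq2 and limma voom also called 2 genes each, both higher. At an unadjusted p under 0.05, 407 genes were higher (2.43%) and 305 lower (1.82%), 712 in all (4.25%). Over all genes the median log2 fold change was 0.00, and 90.2% lay within 0.25 of 0 in either direction. The median standard error (SE) was 0.06 for the 10038 genes at a mean of 10 CPM or more and 0.34 for genes under 1 CPM (CPM is reads scaled to a common library total after factors between libraries). Apart from the called genes, the smallest adjusted p was 0.657.

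**Figure D1:**
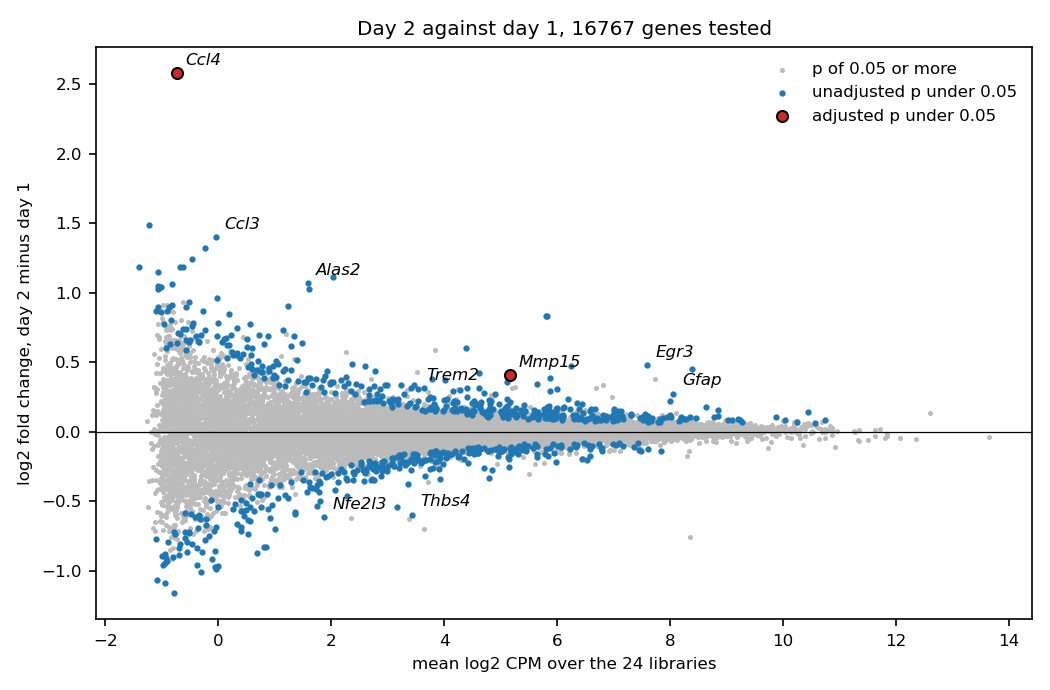
Each point is 1 of the 16767 genes tested. The x axis is the mean log2 CPM over the 24 libraries and the y axis the log2 fold change of day 2 against day 1. Mmp15 and Ccl4 are the 2 genes that passed the test, and most points lie within 0.25 of 0 except at low levels.

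Total counts were 18.2 to 23.7 M reads at day 1 and 16.7 to 20.1 M at day 2 (p = 0.177 by an exact permutation test of both directions over 6 and 6 libraries). Neuronal and entorhinal markers were present in all 12 libraries, with Slc17a7, a vesicular glutamate transporter, at 1513 to 1832 CPM and Reln, secreted by superficial entorhinal neurons, at 116 to 168 CPM. Ttr, a choroid plexus transcript, exceeded 100 CPM in 2 libraries of each day and reached 1171 CPM. Blood leucocyte markers were low, at no more than 0.538 CPM in any library. Cd3e had 4 reads over the day 1 and 3 over the day 2 libraries, and Ms4a1 had 3 and 2. Ccr2 had 40 and 21, S100a8 had 4 and 9, and S100a9 had 8 and 15. Prox1, a dentate granule cell marker, was at 10.5 to 19.3 CPM. Of the animals numbered 9000 or above, 5 were in day 1 and 3 in day 2.

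Mmp15 (ENSMUSG00000031790.9) was at 28.5, 29.5 and 34.1 CPM at day 1 (lowest, median and highest library) and at 35.7, 40.1 and 46.9 CPM at day 2. The groups did not overlap, and every day 2 library lay above every day 1 library. The same held for 0.0954% of all genes tested. The log2 fold change was 0.40 ± 0.07 (SE, n = 6 per group, 95% confidence interval 0.26 to 0.55, edgeR adjusted p = 0.0323). Mmp15 had a mean of 33.9 CPM in vehicle and 38.7 CPM at day 3. Its fold changes against vehicle were -0.14 at day 1, 0.26 at day 2 and 0.20 at day 3 on the log2 scale, none of which passed the test, and these comparisons share the vehicle libraries. Its value lay between 0.36 and 0.48 in every alternative fit. Mmp15 was called in 10 of 18 alternatives, 1 of which had a failed estimate of the spread described at the end, and in 13 of the 24 fits that left out 1 library. It was not called from the day 1 and day 2 libraries alone (adjusted p = 0.300), nor with the first digits of the animal number in the model (0.681).

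Ccl4 (ENSMUSG00000018930.4) rested on few reads, 10 over the day 1 libraries and 59 over the day 2 libraries. Single libraries held 0 to 3 reads at day 1 and 5 to 16 reads at day 2, so the groups did not overlap. Ccl4 was among the 0.0954% of genes with every day 2 library above every day 1 library. Levels averaged 0.0873 ± 0.0646 CPM (SD, n = 6) at day 1 and 0.539 ± 0.226 CPM at day 2. The log2 fold change was 2.58 ± 0.45 (SE, n = 6 per group, 95% confidence interval 1.65 to 3.51, edgeR adjusted p = 0.0323). Vehicle held 5 reads in all and day 3 held 156, so the day 2 libraries lay between day 1 and day 3. The log2 fold change lay between 2.09 and 2.97 in every alternative fit that tested Ccl4. Ccl4 was called in 8 of the 16 alternatives that tested it, 1 of which had the failed estimate of the spread described at the end. Its reads were too few to pass the filter in the day 1 and day 2 libraries alone, or a filter of 1 CPM in 6 libraries. Ccl4 was therefore tested only with other groups included, of which day 3 held the most reads. Its log2 fold change was 2.80 without the libraries of any group with Ttr over 100 CPM, and 2.42 with the haemoglobin level in the model (adjusted p = 0.711). Neither fit gave a call. Ccl4 was called in 10 of the 24 fits that left out 1 library, and not in those without day 1 library 1, 2, 3, 5 or 6, day 2 library 2, 3, 4, 5 or 6, or day 3 library 1, 2, 3 or 4. Libraries whose removal ended the call of Mmp15 were day 1 library 1, 3, 5 or 6, day 2 library 2, 3, 5 or 6 and day 3 library 1, 3 or 4.

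**Figure D2:**
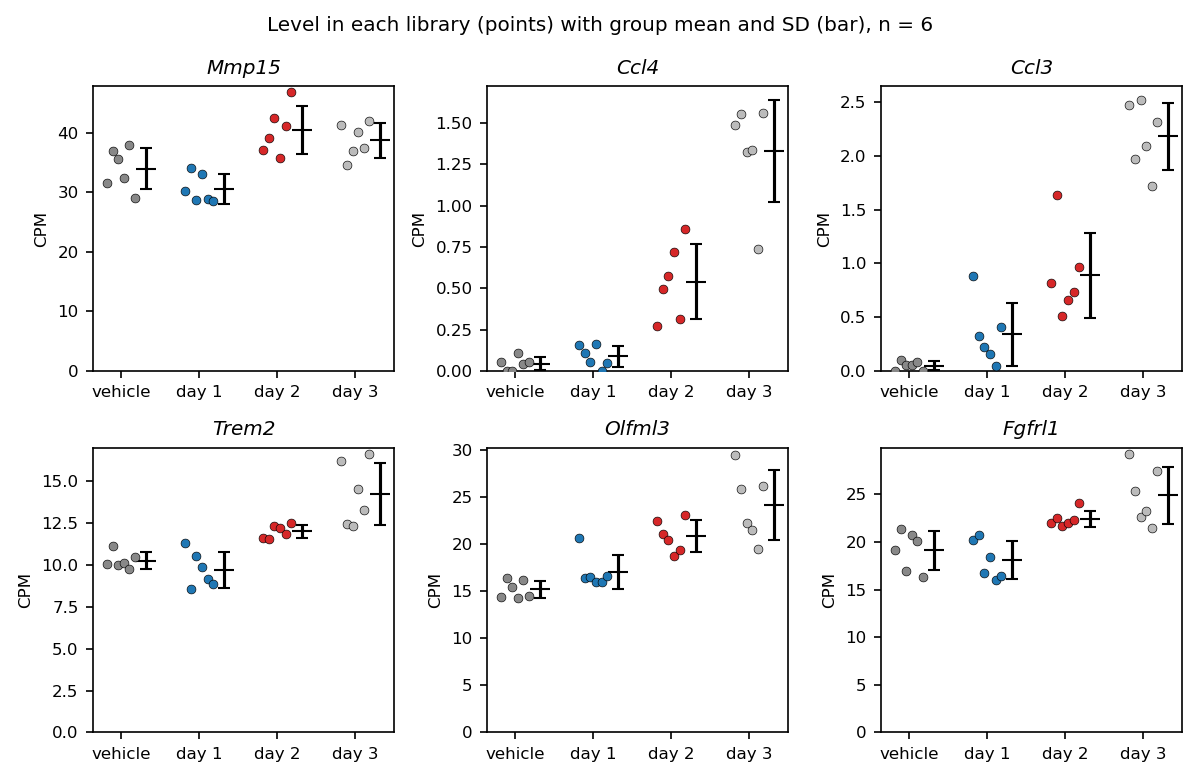
CPM of each library (points) with the group mean and SD (bars, n = 6) for both called genes and other genes named in the text, in vehicle and at days 1 to 3. For Mmp15 the day 2 points, 35.7 to 46.9 CPM, all lie above the day 1 points, 28.5 to 34.1 CPM.

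The 250 bases upstream of a gene's start are printed for Mmp15, a called gene, and for Ccl3 and Trem2, microglial genes described next (RefSeq, GRCm38.p6; Ccl4 and Egr3 have no entry). They lie at chr8:95352046-95352295 (plus strand), chr11:83649379-83649628 (minus strand) and chr17:48346151-48346400 (plus strand). Both strands were searched for the GC box GGGCGG, the Ets/PU.1 core GAGGAA, the kappa-B motif and the AP-1 motif TGANTCA. Capitals mark the 1 GC box of Mmp15, read as its complement CCGCCC, and the 1 Ets/PU.1 core of each of the others, read as TTCCTC.
Mmp15: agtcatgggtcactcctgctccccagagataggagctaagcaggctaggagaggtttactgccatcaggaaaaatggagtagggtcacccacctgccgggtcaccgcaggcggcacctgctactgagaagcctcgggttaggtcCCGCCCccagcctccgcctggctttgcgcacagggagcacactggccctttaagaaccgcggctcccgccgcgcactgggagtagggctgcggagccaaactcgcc
Ccl3: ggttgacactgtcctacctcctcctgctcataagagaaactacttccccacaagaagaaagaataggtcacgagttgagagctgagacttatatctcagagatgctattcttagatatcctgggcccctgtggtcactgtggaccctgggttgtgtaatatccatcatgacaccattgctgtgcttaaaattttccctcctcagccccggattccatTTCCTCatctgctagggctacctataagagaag
Trem2: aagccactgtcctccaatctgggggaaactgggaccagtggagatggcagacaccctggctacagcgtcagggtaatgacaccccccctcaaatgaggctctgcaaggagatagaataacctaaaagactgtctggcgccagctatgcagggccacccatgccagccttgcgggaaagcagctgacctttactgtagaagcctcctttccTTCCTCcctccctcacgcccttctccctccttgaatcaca
Of 32851 promoters of this length, 32.7% held the GC box, 23.3% the Ets/PU.1 core, 17.6% the kappa-B motif and 6.75% the AP-1 motif. Trem2 also held 1 AP-1 match, which reads the same motif on both strands and was counted once. Of 7 microglial genes searched, 3 (Ccl3, Trem2 and Itgam) held an Ets/PU.1 core and 4 (Olfml3, Ly86, Ccl6 and Cd180) did not. A match describes the letters only.

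Chemokines and microglial genes were mostly above 0 without passing the test. Most genes named from a list, here and below, had the lowest unadjusted p of that list in this comparison, so they are not typical of it. Of 14 cytokine and chemokine genes measured, 1 (Ccl4) rose, 12 were above 0, and the median log2 fold change was 0.14, against 51.6% of all genes above 0. Ccl3, a chemokine that shares receptors with Ccl4, had 40 reads over the day 1 libraries and 100 over the day 2 libraries. It was at 0.0422, 0.271 and 0.882 CPM at day 1 and 0.515, 0.779 and 1.64 CPM at day 2 (lowest, median and highest). Day 1 library 1 lay within the day 2 range, so the groups overlapped. Its log2 fold change was 1.40 ± 0.37 (edgeR adjusted p = 0.657). Whether reads were shared between the related genes Ccl3 and Ccl4 was not examined. Ccl6 differed by 0.73 ± 0.20 and did not pass either.

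Among 10 pan-microglial genes, 0 were called, 9 were above 0 and the median log2 fold change was 0.20. Itgam, the alpha chain of complement receptor type 3, was at 2.89, 4.40 and 5.06 CPM at day 1 and 4.96, 5.71 and 7.28 CPM at day 2, a log2 fold change of 0.49 ± 0.13. Only the edges of those ranges overlapped. Aif1, which encodes the microglial protein Iba1, differed by -0.06 ± 0.10. This widely used microglial marker was thus near 0 beside others above it.

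Trem2, a lipid-sensing receptor of phagocytic microglia, was at 8.55, 9.50 and 11.3 CPM at day 1 and 11.6, 12.01 and 12.5 CPM at day 2. The groups did not overlap, yet the log2 fold change of 0.31 ± 0.08 did not pass (edgeR adjusted p = 0.657). In all, 28 genes had 6 day 2 libraries all above or all below the 6 day 1 libraries, which is 0.167% of those tested. They split into 16 higher (0.0954%) and 12 lower (0.0716%). If the libraries were divided into 6 and 6 at random, a fraction of 0.00216 of genes would on average be kept apart, more than the share seen. Fgfrl1, an FGF receptor that lacks a kinase domain, Fbxo9, an F-box protein, and Sesn2, a stress-induced regulator of growth signalling, were among the higher, and were chosen after their values were seen. Tpd52l1, Tpbg and Nxph4 were among the lower ones, chosen likewise.

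Of 15 homeostatic microglia genes 13 were above 0 (median 0.06), of 25 activated microglia genes 20 (median 0.11), and of 12 phagocytic receptor and SYK signalling genes 11 (median 0.12). None of these genes was called. Ly86, a partner of the receptor Cd180, was at 3.44 to 5.11 CPM at day 1 and 4.35 to 6.75 CPM at day 2, a log2 fold change of 0.47 ± 0.13. Cd180 itself differed by 0.69 ± 0.21, and Olfml3, a secreted microglial protein, by 0.30 ± 0.08. Against vehicle, Olfml3 was higher at day 2 by 0.48 (edgeR adjusted p = 0.00721) and at day 3 by 0.68. Cd180 was higher by 1.36 and 1.76 at those days. The share of genes called higher was 0.0656% at day 2 and 0.602% at day 3, both against vehicle.

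Genes of dividing cells were mostly above 0 as well. Of 22 proliferation genes, 0 were called and 17 were above 0, with a median of 0.16. Mki67, a marker of cycling cells, was at 1.12, 1.19 and 2.58 CPM at day 1 and 1.21, 2.38 and 3.57 CPM at day 2. The ranges overlapped over most of their length, and the log2 fold change was 0.64 ± 0.23. Top2a, a topoisomerase of dividing cells, differed by 0.90 ± 0.31. Mki67 was higher at day 3 than in vehicle by 1.62 (edgeR adjusted p = 2.42e-05).

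**Figure D3:**
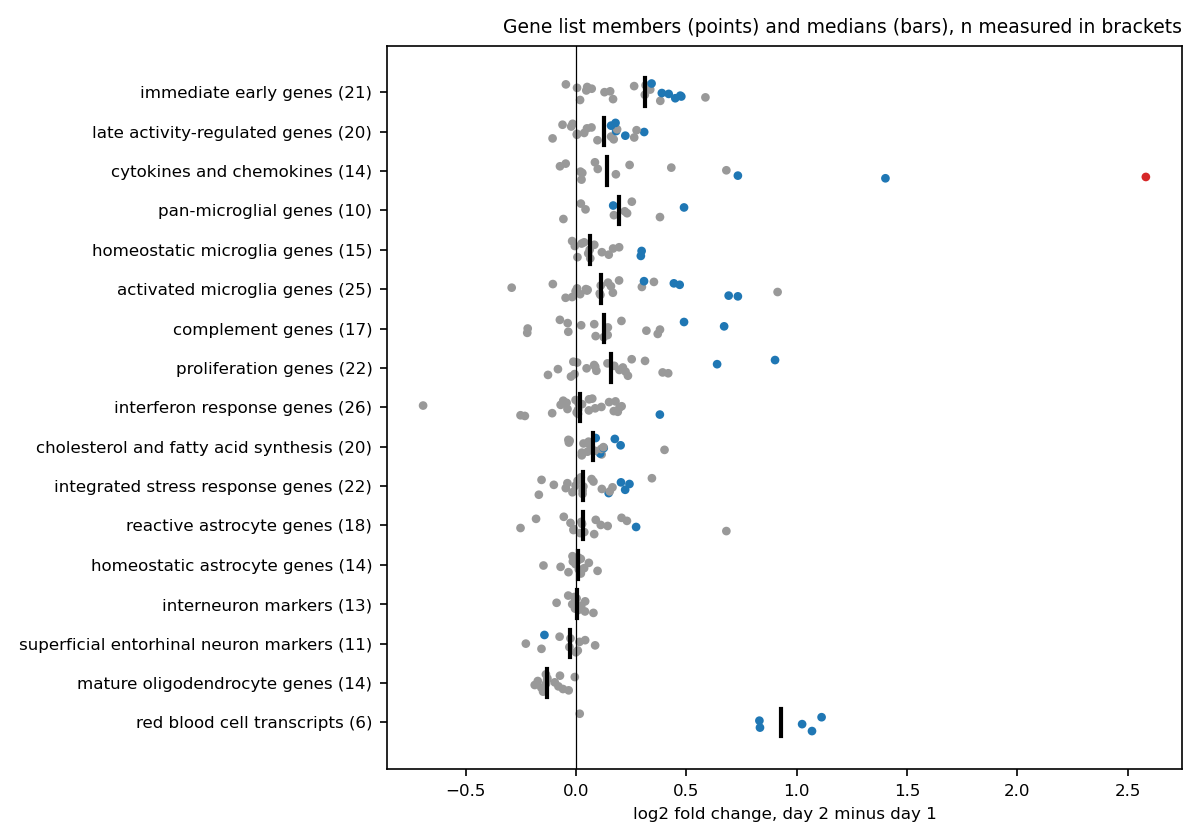
Log2 fold change of day 2 against day 1 (x axis) for the measured members of gene lists (points) with the list median (bars). Red marks an adjusted p under 0.05, blue an unadjusted p under 0.05 and grey the rest; Ccl4 is the 1 red point.

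Activity-regulated genes were lower at day 1 than at day 2 in most members, without a call. Of 21 immediate early genes, 20 were above 0 (median 0.31), 6 had an unadjusted p under 0.05 and 0 were called. Among all genes, 51.6% were above 0 and 2.43% were higher at that level. Genes of a list are not independent replicates. Egr3, an activity-induced zinc finger factor, was at 117, 138 and 175 CPM at day 1 and 146, 199 and 232 CPM at day 2. The upper day 1 libraries reached into the day 2 range, and the log2 fold change was 0.48 ± 0.12 (edgeR adjusted p = 0.657). Vehicle averaged 233 CPM, and Egr3 fell by 0.74 on the log2 scale from vehicle to day 1 (adjusted p = 0.00602), where 0.0656% of genes were called and 0.0537% were called lower. At day 2 its difference from vehicle was -0.26, which did not pass. The comparisons share libraries, so these values are given side by side only.

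Arc, which acts in synaptic trafficking of glutamate receptors, ranged from 31.3 to 310 CPM at day 1 and from 52.5 to 328 CPM at day 2. Libraries within a day differed by more than the days did, and the log2 fold change was 0.38 ± 0.43. The lowest 3 libraries for Arc were day 1 library 1 (31.3 CPM), day 2 library 1 (52.5 CPM) and day 1 library 3 (79.4 CPM). Fos differed by 0.31 ± 0.39 and Egr1 by 0.45 ± 0.22. With the haemoglobin level in the model, the values were -0.12 for Fos, -0.08 for Arc and 0.19 for Egr1, and the median of the immediate early genes was 0.02. In females alone the log2 fold changes were 0.71 for Fos, 0.81 for Arc and 0.76 for Egr1, and in males alone -0.22, -0.23 and 0.08. The median of the immediate early genes was 0.51 in females and -0.02 in males. The difference between the sexes in these 3 genes did not pass the test (edgeR adjusted p = 0.999). The part of the haemoglobin level in these values was not tested otherwise.

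Of 20 late activity-regulated genes, 16 were above 0 (median 0.13) and 0 were called. Nptx2, a secreted pentraxin that clusters glutamate receptors, was at 46.2, 51.0 and 57.6 CPM at day 1 and 54.1, 66.2 and 72.5 CPM at day 2, a log2 fold change of 0.31 ± 0.12. Its ranges met at 54.1 to 57.6 CPM. Homer1, a postsynaptic scaffold, differed by 0.22 ± 0.10 and Vgf, a neuropeptide precursor, by 0.18 ± 0.06.

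Dio2 and Ephb3 were among the 9 genes that fell from vehicle to day 1. Dio2, the enzyme that makes active thyroid hormone, fell by 0.52 then and stood 0.29 ± 0.09 above day 1 at day 2. Ephb3, a receptor for ephrin-B ligands, fell by 0.41 then and stood 0.27 ± 0.07 above day 1 at day 2. Neither later difference passed the test (edgeR adjusted p = 0.928 and 0.657). Both comparisons use the same day 1 libraries, and these genes were picked for being low there, so the sign of the later difference is no separate result.

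**Figure D4:**
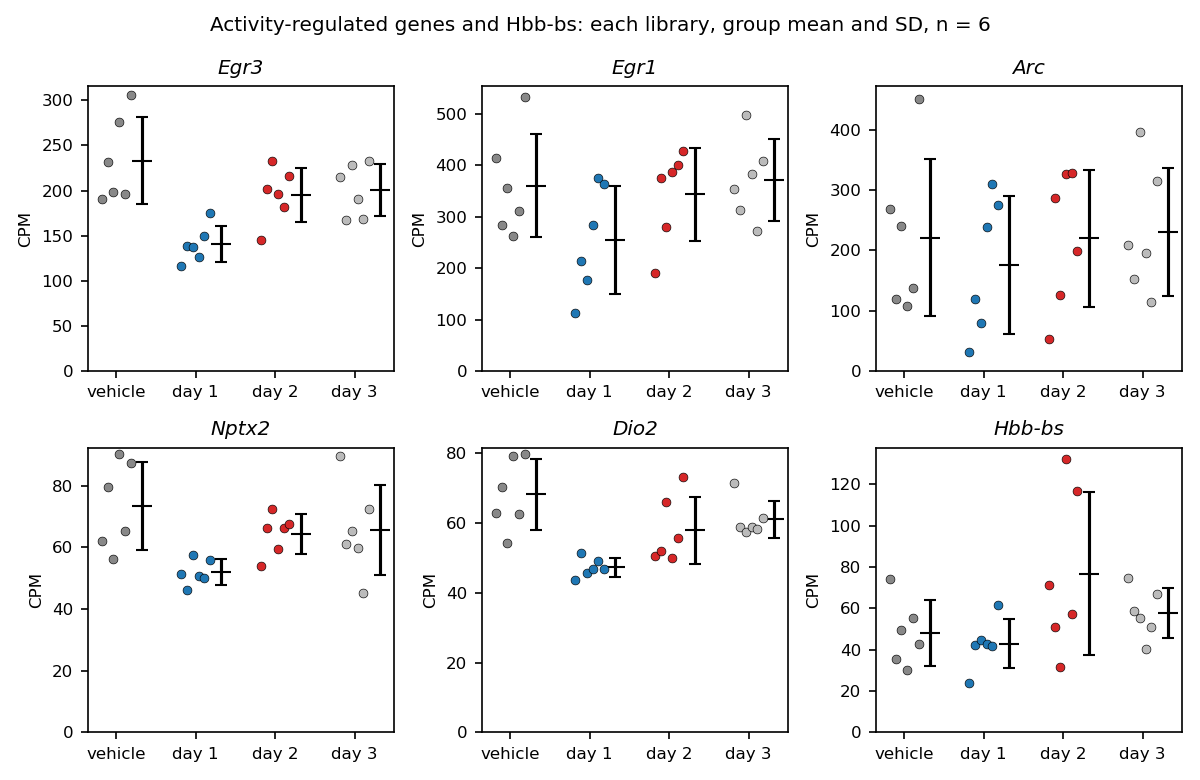
CPM of each library (points) with the group mean and SD (bars, n = 6) for 5 genes regulated by activity or lower at day 1, and for Hbb-bs, a haemoglobin gene, in vehicle and at days 1 to 3. Egr3 runs from 117 to 175 CPM at day 1 and from 146 to 232 CPM at day 2, while Arc spans 31.3 to 328 CPM within those days.

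Transgene and entorhinal markers differed little between the days. EYFP, the reporter of the transgene, was at 75.9, 111 and 134 CPM at day 1 and 81.6, 102 and 118 CPM at day 2, a log2 fold change of -0.11 ± 0.11 (95% confidence interval -0.33 to 0.12). The day 2 range lay inside the day 1 range. From vehicle to day 3, where 0.0119% of genes were called lower, EYFP fell by 0.89. Glra1, the glycine receptor subunit, differed by -0.05 ± 0.13, Reln by 0.04 and Calb1, a calcium-binding protein of superficial neurons, by 0.00. Of 11 superficial entorhinal neuron markers 4 were above 0 (median -0.03), and of 13 interneuron markers 7 were (median 0.00).

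None of the astrocyte and oligodendrocyte genes listed was called. Gfap was at 197, 214 and 255 CPM at day 1 and 228, 246 and 314 CPM at day 2, with overlapping ranges and a log2 fold change of 0.27 ± 0.08 (edgeR adjusted p = 0.720). It was higher than vehicle at day 2 by 0.51 and at day 3 by 1.12. Of 18 reactive astrocyte genes, 12 were above 0 (median 0.03). All 14 mature oligodendrocyte genes were below 0 (median -0.13), with 0 called and 0 at an unadjusted p under 0.05. Their median lay below 0 in the fit reported and in all 42 alternatives, but most of these fits share their libraries. The unchanged sign is therefore no separate result. The summed CPM of the 14 genes had a median of 3033 at day 1 and 3075 at day 2. Mag, a myelin adhesion protein, differed by -0.19 ± 0.10 and Mbp, myelin basic protein, by -0.10 ± 0.09.

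The stress and lipid gene lists given here had medians of 0.02 to 0.08, with most members above 0. Atf3, a stress-induced transcription factor, was at 0.259, 0.755 and 1.14 CPM at day 1 and 0.896, 1.41 and 1.74 CPM at day 2, a log2 fold change of 0.85 ± 0.27 that did not pass. Ecel1, an endopeptidase of injured neurons, differed by 0.60 ± 0.16. Both had the smallest unadjusted p of 15 axon injury response genes, of which 11 were above 0 and 4 below (median 0.05). Of 22 integrated stress response genes 15 were above 0 (median 0.03), of 18 unfolded protein response genes 15 (median 0.05), of 20 cholesterol and fatty acid genes 17 (median 0.08) and of 26 interferon response genes 17 (median 0.02). At an unadjusted p under 0.05, 5 cholesterol and fatty acid genes and 4 integrated stress response genes were higher. So were 2 axon injury, 1 interferon response and 0 unfolded protein response genes, beside 2.43% of all genes. None of the genes of these lists was called.

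Among the lower genes with the smallest unadjusted p were Nfe2l3 (-0.61 ± 0.15), a CNC transcription factor, and Thbs4 (-0.60 ± 0.15), a matrix protein of astrocytes and vessels. Thbs4 was at 10.1, 12.7 and 19.6 CPM at day 1 and 6.96, 9.43 and 10.8 CPM at day 2. Tpbg, a cell-surface glycoprotein, was at 15.6 to 16.7 CPM at day 1 and 11.9 to 14.7 CPM at day 2, a log2 fold change of -0.27 ± 0.07. Neither passed the test (edgeR adjusted p = 0.657 for both), and only Tpbg kept its groups apart, as did 0.0716% of all genes in that direction.

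Blood transcripts were higher in part of the day 2 libraries. Of 6 red blood cell transcripts measured all were above 0 (median 0.93), 5 at an unadjusted p under 0.05, and 0 were called. For all genes the shares were 51.6% above 0 and 2.43% higher at that level. Hbb-bs was at 24.1, 42.7 and 61.6 CPM at day 1 and 31.9, 64.1 and 132 CPM at day 2. The highest values belonged to day 2 libraries 4 and 6, which were also rich in Ttr. The summed haemoglobin genes and Alas2, the erythroid haem enzyme, differed by 0.75 on the log2 scale (p = 0.0736 by the same exact permutation test, whose smallest possible p here is 0.00216). With that sum in the model 0 genes were called and Mmp15 had an adjusted p of 0.2302. The part of blood in the results was not tested beyond this. Without the libraries of any group with Ttr over 100 CPM, Mmp15 was called at a log2 fold change of 0.48 (edgeR adjusted p = 0.00756).

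Genes that were high at day 3 were looked up between day 1 and day 2, with no library in common: day 3 and vehicle in a fit of their own, day 1 and day 2 in another. This comparison was added after the data were seen. From vehicle to day 3, 83 genes were higher (0.516% of those tested in that fit), and 76 of them were also tested between day 2 and day 1. Of these 76, 66 were above 0 at day 2 against day 1 (86.8%), beside 50.9% of all 15839 genes in both fits. Their median log2 fold change was 0.15, and 18 (23.7%) were higher at an unadjusted p under 0.05, beside 1.86% of all genes. Hk2, a hexokinase, differed by -0.36 and Ect2, a regulator of cell division, by -0.78, the 2 members lower at that level, beside 1.54% of all genes. The 3 genes called lower at day 3 in that fit (0.0187%) are drawn left of 0. None of the 76 was called. The median stayed between 0.12 and 0.18 when any 1 of the 12 libraries was left out. It was 0.13 without those of the 12 that were rich in Ttr. Across all 15839 genes, Pearson's r was 0.13 and Spearman's rho 0.07. Genes are not independent replicates.

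**Figure D5:**
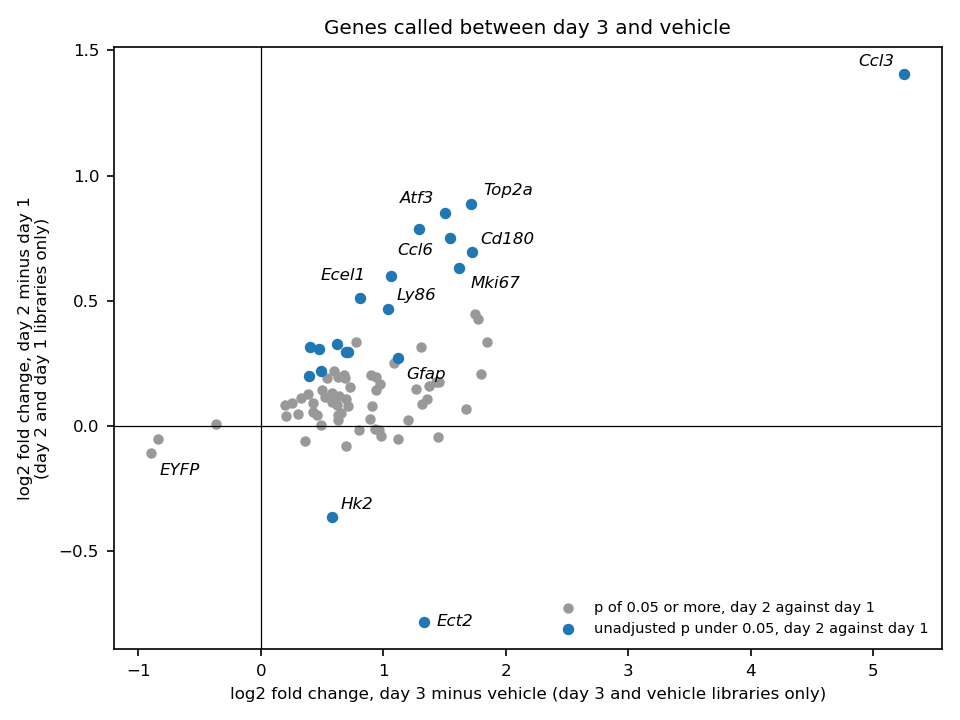
Genes called between day 3 and vehicle, with their log2 fold change of day 3 against vehicle (x axis) and of day 2 against day 1 (y axis), each from a fit of its own libraries. Blue points have an unadjusted p under 0.05 on the y axis. Of the 76 genes right of 0, 66 lie above 0.

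The sexes were compared by their difference in the change from day 1 to day 2. 0 genes were called in edgeR (0%) and 0 in limma voom, and 636 of 16767 had an unadjusted p under 0.05 in edgeR. The smallest adjusted p was 0.999. Of the named genes, Fas, a death receptor, had the smallest unadjusted p, with a log2 fold change of 1.71 in females and -0.09 in males. Haemoglobin genes and Alas2 were also further above 0 in females, with Hbb-bs at 1.47 against 0.10 and Alas2 at 1.52 against 0.52. Cxcl10, an interferon-induced chemokine, was at -0.46 in females and 2.20 in males. None of these differences passed the test, and each sex had 3 libraries per day. Fas was at 1.98 CPM in female day 2 library 6, with the other day 2 libraries at 0.859 to 1.195 CPM. Cxcl10 was at 0.801 CPM in female day 1 library 5, with the other day 1 libraries at 0.0453 to 0.220 CPM.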

How the data were processed

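Per the labels' protocols, flash-frozen entorhinal cortex gave RNA through a Qiagen column, and Novogene prepared the libraries. The authors deposited 1 table of raw read counts, whole numbers per gene and not normalized, with 55417 genes, of which 52083 identifiers matched a symbol; all 24 library columns were used. The submitters' processing notes name mm39, DESeq2 1.32.0, STAR 2.7.9a and fastp 0.23.1. Strand use, annotation and counting program: not given in the sources used here, so overlapping or antisense genes cannot be told apart. No coordinates of mm39 are printed.

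Groups came from the treatment label. Counts were tested in R 4.3.3 with edgeR 4.0.16 (quasi-likelihood, two-sided; trimmed mean factors; filterByExpr with minimum count 10 and minimum total 15; group and sex over all 24 libraries). Adjusted p-values are Benjamini-Hochberg over all genes tested, with calls at an adjusted p under 0.05. The biological coefficient of variation was 8.51%. Replicates were compared by chi-square over genes (30 pairs, ratio to degrees of freedom 4.27 to 13.8), and no pair was as alike as sampling noise allows; all 12 libraries matched their sex label. The edgeR steps of the reported fit were tested on simulated counts, drawn independently for each gene and library. That simulation held no differences shared between genes, such as blood or choroid plexus, and did not cover the other tools or the permutation tests.

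The members and gene lists were chosen with earlier results of these data known. Named genes were up to 12 called per direction at a mean log2 CPM of at least 1. Where fewer than 8 were called, the 8 with the lowest unadjusted p at that level were added. Up to 4 genes per list were those with the lowest unadjusted p in the same day 2 against day 1 comparison. Any called gene where 5 or fewer were called, and a fixed set of genes, completed the choice. Alternatives were other factors, filters, tools (DESeq2 1.42.0, limma 3.58.1 voom), covariates and subsets of libraries, and leaving out each library.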

Additional observations from a re-analysis of the deposited data

Results flagged for a closer look

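Among the named genes, 178 groups of 6 libraries were examined for a library far from the others, and 12 (6.74%) held one; chance alone does so in about 1 in 20 groups. At day 2, library 6 was highest for Fgfrl1 (24.1 CPM; the others 21.7 to 22.5), Laptm5 (41.8; 31.3 to 33.8) and Fas (1.98; 0.859 to 1.195). Library 3 of day 2 was lowest for Taf8 (9.50 CPM; the others 12.97 to 14.1) and highest for Homer2 (108; 83.0 to 91.8). Library 1 of day 2 was lowest for Etv4 (7.26 CPM; the others 9.39 to 10.6) and Wfs1 (178; 214 to 234).

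At day 1, library 5 was highest for Srsf3 (99.4 CPM; the others 84.8 to 89.8) and for Cxcl10 (0.801; 0.0453 to 0.220). Library 1 of day 1 was highest for Olfml3 (20.6 CPM; 15.9 to 16.6), library 2 for Kcnh3 (200.5; 166 to 179) and library 3 for Tpd52l1 (20.3; 16.6 to 17.8).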

How the results depend on the processing

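The 2 calls became 1 with a filter of 1 CPM in 6 libraries or without the libraries rich in Ttr, and 0 with the animal number prefix, with only the day 1 and day 2 libraries, with animals numbered 9000 or above, in females or males alone, against a 1.2-fold change, or with the haemoglobin level in the model. Ccl4 was not tested with the filter of 1 CPM in 6 libraries or with only the day 1 and day 2 libraries. The calls stayed at 2 with other factors, DESeq2, limma voom, no sex term or a robust prior, and ran from 0 to 2 when 1 library was left out. The listed genes called, 1 in the fit reported, were 0 under each of the settings that gave 0 or 1 calls, and 0 to 1 when 1 library was left out.

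Without any filter on low counts (36066 genes) edgeR called 58 genes, 41 higher and 17 lower, 32 of them listed. These are not results: in that fit alone, of 39, the estimated prior degrees of freedom were infinite (9.63 in the fit reported), so every gene took the spread of the trend in place of its own. The quasi-dispersion of Arc went from 48.1 to 0.595, and its adjusted p to 5.67e-12 from an unadjusted 0.377. On the same 36066 genes, chosen after this was seen, DESeq2 called 3 genes (2 higher, 1 lower, 1 listed) and limma voom 0 (0 listed). All 27 named genes that gained a call in any alternative gained it in the edgeR fit without the filter.

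Of 1581 alternatives of the 88 named genes, the edgeR fit without the filter included, 1522 kept their verdict. Leaving out 1 library kept it in 2086 of 2112. Apart from Mmp15 and Ccl4, these genes were not called in the fit reported (edgeR adjusted p of 0.657 or more), so most verdicts could hardly change. The call was kept in 10 of 18 alternatives for Mmp15 and in 8 of 16 for Ccl4. No called gene changed sign. The depth difference ran from -1.97 to -0.872 M reads, Ttr from -0.91 to 0.79, choroid plexus genes from -0.73 to 0.69 and red blood cell transcripts from 0.20 to 0.40 (log2) when 1 library was left out; the last had p = 0.00649 (exact permutation test) without day 2 library 3 and 0.102 with all. The sex difference gave 0 calls in every alternative run. The causes of lost calls were not tested. Depth limits genes such as Ccl4, with 0 to 3 reads per library at day 1. No paired analysis was possible because the labels give the groups no shared replicate numbers. The nearest to a block was the animal number prefix, of which 92, 94 and 97 hold libraries of both days; the labels do not say what it marks, and with it as a factor Mmp15 had an adjusted p of 0.681 and Ccl4 of 0.529.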
